A study of Mus musculus with 14 samples.

Results

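The regions described here are 1108 stretches of heart chromatin, out of 49314 in the table of both marks at 0% dietary fat, in which butyrylation of lysine 9 of histone H3 (H3K9Bu) outweighed acetylation of the same residue (H3K9ac). They were selected on measured values. Each overlaps a promoter window, holds no CpG island and is shorter than 4000 bp. Its mean H3K9Bu signal over the sham and TAC libraries is 20 or more and at least 1.5 times its mean H3K9ac signal. Of the 49314 regions, 21533 overlapped a promoter window, 9866 of those held no island, 9757 were under 4000 bp, 4621 reached the H3K9Bu minimum and 1108 also met the ratio. A promoter window runs from 7500 bp upstream to 2500 bp downstream of a gene start in the authors' tables. Over all regions of the table, 27.8% had an H3K9Bu signal at least 1.5 times the H3K9ac signal. That contrast chose the regions, so nothing is read from it. The 1108 regions had 830 different nearest genes, and 106 regions lay in more than 1 promoter window.

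Hearts came from male C57BL/6J mice aged 12 weeks. Their food supplied 0, 10 or 60% of calories from fat, starting 4 days ahead of the operation and lasting until 1 week past it. The operation was either transverse aortic constriction (TAC), which raises the pressure against which the left ventricle pumps, or sham surgery. Each of the 12 combinations of mark, surgery and diet is 1 chromatin immunoprecipitation library from a pool of 3, so single differences have no replicate check. The groups used at 0% fat were sham and TAC for each mark, and the same 4 combinations were used at 10% and at 60% fat.

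Acyl groups on histone lysines neutralise the positive charge of the side chain and loosen its hold on DNA, and they are bound by reader proteins. Acetylation is made from acetyl-CoA and butyrylation from butyryl-CoA, a product of short-chain fatty acid metabolism and of the last rounds of beta-oxidation. The same acyltransferases can place both groups, and deacylases remove them. H3K9ac is a standard mark of active gene starts and enhancers. The heart takes most of its energy from fatty acids.

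Although every region lies in a promoter window, few lay on a gene start, so the promoter sequences that shared 150 bases or more with a region are shown first. Of 32817 promoter sequences in RefSeq (GRCm38.p6, the assembly also called mm10; 250 bases before to 50 after the start), 33 had 150 bases or more inside one of the 1108 regions, each in a different region. Their median GC content was 51.0%, against 54.3% in the 1036 sequences inside the other island-free promoter-window regions with H3K9Bu of 20 or more. Their median ratio of observed to expected CpG was 0.234, against 0.486 in those sequences, 0.824 in the 8286 sequences inside regions with a CpG island and 0.383 in the whole table. The word CATTCC, which TEAD factors bind, was in 16 of the 33 sequences (48.5%), in 16.4% of the 1036 and in 14.7% of the whole table, counting both strands. GGGCGG, the SP/KLF word, was in 6 of 33 (18.2%), against 40.7% and 35.6%. These words had the largest differences, in percentage points, of a longer list searched. AGATAA, the GATA word, was in 9.09% of the 33 and 9.17% of the 1036, and the E-box word CAGCTG in 21.2% and 20.2%. TATAAA was in 18.2% and 9.27%. A match is a description of letters and not of binding, and 33 sequences give wide uncertainty.

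The 250 bases before the RefSeq start are printed for 4 of these genes, chosen after their values were seen because the genes have known roles. Of the bases printed, 250 lay inside the region at Ankrd23 and at Fbp2, 238 at Tnni3k and 160 at Aldh1a1. The regions of Tnni3k and Aldh1a1 ended before the start. Ankrd23 encodes a muscle ankyrin repeat protein of the titin filament, and Tnni3k a kinase of cardiac muscle that interacts with troponin I. Aldh1a1 makes retinoic acid from retinaldehyde, and Fbp2 is the muscle fructose bisphosphatase. Capitals mark AGATAA (the GATA word, here on the opposite strand) in Ankrd23, CATTCC in Tnni3k and Aldh1a1, and the E-box words CAGCTG and CACGTG in Fbp2.
Ankrd23, chr1:36536557-36536806, minus strand: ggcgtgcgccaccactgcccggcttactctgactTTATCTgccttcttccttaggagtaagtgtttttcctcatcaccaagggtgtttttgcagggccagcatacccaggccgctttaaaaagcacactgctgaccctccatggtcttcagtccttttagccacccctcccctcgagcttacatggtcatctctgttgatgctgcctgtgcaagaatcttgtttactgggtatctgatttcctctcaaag
Tnni3k, chr3:155055408-155055657, minus strand: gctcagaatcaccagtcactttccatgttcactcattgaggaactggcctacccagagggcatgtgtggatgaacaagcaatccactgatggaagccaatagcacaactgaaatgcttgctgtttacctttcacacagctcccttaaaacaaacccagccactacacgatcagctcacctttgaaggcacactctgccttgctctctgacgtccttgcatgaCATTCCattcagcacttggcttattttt
Aldh1a1, chr19:20492333-20492582, plus strand: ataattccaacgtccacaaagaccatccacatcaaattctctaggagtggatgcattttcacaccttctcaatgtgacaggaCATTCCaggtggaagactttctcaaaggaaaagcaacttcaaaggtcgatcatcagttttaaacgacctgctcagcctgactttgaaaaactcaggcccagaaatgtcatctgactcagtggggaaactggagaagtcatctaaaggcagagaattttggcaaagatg
Fbp2, chr13:62858401-62858650, minus strand: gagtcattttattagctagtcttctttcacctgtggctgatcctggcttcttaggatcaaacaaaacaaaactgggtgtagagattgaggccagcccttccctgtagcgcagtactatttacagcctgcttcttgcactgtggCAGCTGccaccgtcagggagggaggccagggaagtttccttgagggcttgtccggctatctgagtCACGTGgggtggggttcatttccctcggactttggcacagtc
At Ankrd23 the H3K9Bu signal at 0% fat was 35.5 in sham and 44.7 in TAC, and the H3K9ac signal 11.5 and 22.6. At Tnni3k the H3K9Bu signals were 38.0 and 41.4 and the H3K9ac signals 20.6 and 19.8. At Aldh1a1 they were 25.8 and 19.2 for H3K9Bu and 10.6 and 13.2 for H3K9ac. At Fbp2 they were 37.9 and 22.3 for H3K9Bu and 18.8 and 15.4 for H3K9ac. The 4 genes had 3 to 7 CpG sites in the 300 bases. The median was 7 over all 32817 promoter sequences and 10 in the 1036 inside the other island-free promoter-window regions.

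The signal given throughout is the mean tag density of a region as deposited. All 8 cardiomyocyte markers checked had a promoter-window region, with strongest H3K9ac signals of 53.7 to 106 in sham at 0% fat. None of 3 lymphocyte markers had one at 0% fat. Tags estimated within the merged regions came to 2543841 to 9163220 per library, and the total reads are not known. The sham 10% fat H3K9Bu library stood apart, with 41348 regions called against 14679 to 29473 in the other 3 H3K9Bu libraries of its table.

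The butyrylation-leaning regions mostly lay upstream of gene starts rather than at them. Their centres were a median of -3283 bp from the nearest start (quartiles -5528 and -854 bp; negative is upstream). The other 3513 island-free promoter-window regions with H3K9Bu of 20 or more centred at a median of -84 bp. Within 1000 bp of a start lay 204 of the 1108 regions (18.4%) and 1718 of the 3513 (48.9%). More than 2500 bp upstream lay 651 (58.8%) and 938 (26.7%). Only 42 of the 1108 regions spanned their nearest start, against 1194 of the 3513. The label of a promoter region therefore holds for the window and for few of the starts themselves.

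**Figure D1:**
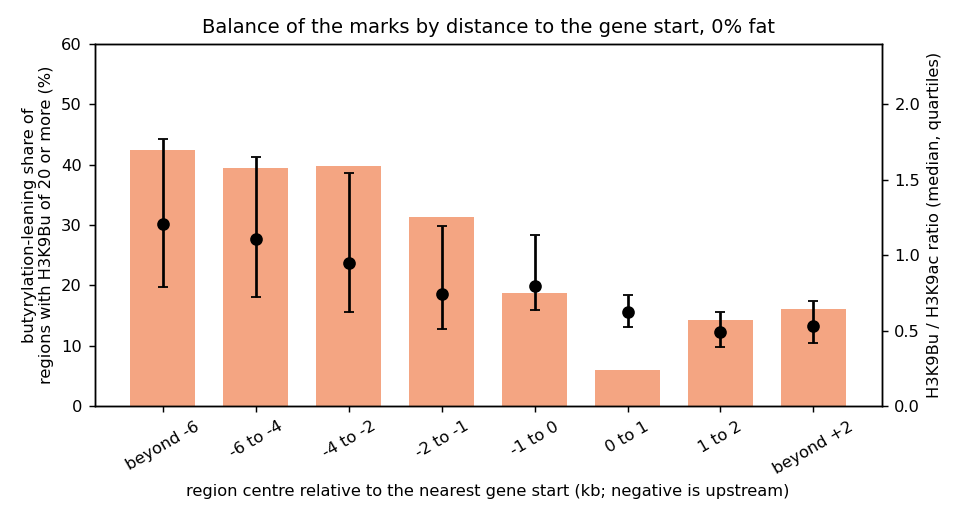
Island-free promoter-window regions under 4000 bp at 0% fat, by the distance of the region centre to the nearest gene start in kb. Bars (left axis) give the butyrylation-leaning share of regions with H3K9Bu of 20 or more, and points (right axis) the median ratio of H3K9Bu to H3K9ac signal with its quartiles. The share is 42.4% beyond 6 kb upstream and 6.03% in the first kb of the gene.

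The balance of the marks differed with distance in island-free promoter-window regions as a whole. The median ratio of H3K9Bu to H3K9ac was 1.21 in 716 regions centred upstream of -6000 bp, 1.11 from -6000 to -4000 bp and 0.95 from -4000 to -2000 bp. It was 0.74 from -2000 to -1000 bp, 0.79 in the last 1000 bp before the start and 0.62 in the 2051 regions of the first 1000 bp of the gene. From 1000 to 2000 bp into the gene it was 0.49, the lowest of the 8 bins. Median H3K9ac was 33.1 in the first 1000 bp of the gene and 20 to 26.0 elsewhere. Median H3K9Bu was 17.7 to 26.2 up to 1000 bp into the gene and 11.6 or less beyond that. Since the rule chose on this ratio, the numbers describe where the chosen regions come from.

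Of the 904 butyrylation-leaning regions more than 1000 bp from the start in either direction, 580 belonged to a gene with another region centred within 1000 bp of the start. Each of the 580 was paired with that start region, and several regions of 1 gene can share it. The start region held a CpG island in 352 pairs. Over the pairs the median H3K9ac signal was 55.0 at the start and 14.9 at the butyrylation-leaning region, and the median H3K9Bu signal 36.7 and 29.0. H3K9ac was the higher mark at the start in 483 pairs, and the start region reached a ratio of 1.5 in 38. One side of each pair was chosen for H3K9ac low against H3K9Bu and the other was not, so the difference in H3K9ac follows in part from the rule and nothing is read from it.

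The regions were short, and most had a neighbour. Their median length was 392 bp (quartiles 280 and 579), against 760 bp in the other island-free promoter-window regions and 389 bp in the 10579 butyrylation-leaning regions outside promoter windows. Another region of the table lay within 1000 bp of 799 of them (72.1%), against 67.6% of the other island-free promoter-window regions and 77.4% of the acetylation-leaning ones. The nearest such neighbour had a median ratio of 1.59, and 377 of the 799 neighbours were themselves among the 1108. Around the other island-free promoter-window regions the neighbours' median ratio was 0.71, and around the butyrylation-leaning regions outside promoter windows it was 1.95. Ift81, an intraflagellar transport gene, had 6 of the regions, and Lsp1, a leukocyte actin-binding protein gene, had 5. Inside a gene body lay 374 of the 1108 (33.8%), against 60.3% of the others.

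At 0% fat the median H3K9Bu signal of the 1108 regions was 33.7 in sham and 26.0 in TAC. The median H3K9ac signal was 14.9 in sham and 14.5 in TAC. The ratio of the means had a median of 1.96 and reached 9.19. In the other island-free promoter-window regions the same medians were 30.4 and 28.7 for H3K9Bu and 34.4 and 38.8 for H3K9ac. Both groups had to reach the same H3K9Bu minimum and were split by the ratio, so the rule itself places their difference in H3K9ac. The caller marked 487 of the regions in sham H3K9Bu only, 124 in TAC H3K9Bu only and 497 in both. No region lacked an H3K9Bu call, and 144 had an H3K9ac call as well. With 58 and 45 estimated tags for H3K9Bu and 25 in each H3K9ac library at the median region, single ratios carry wide counting error.

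**Figure D2:**
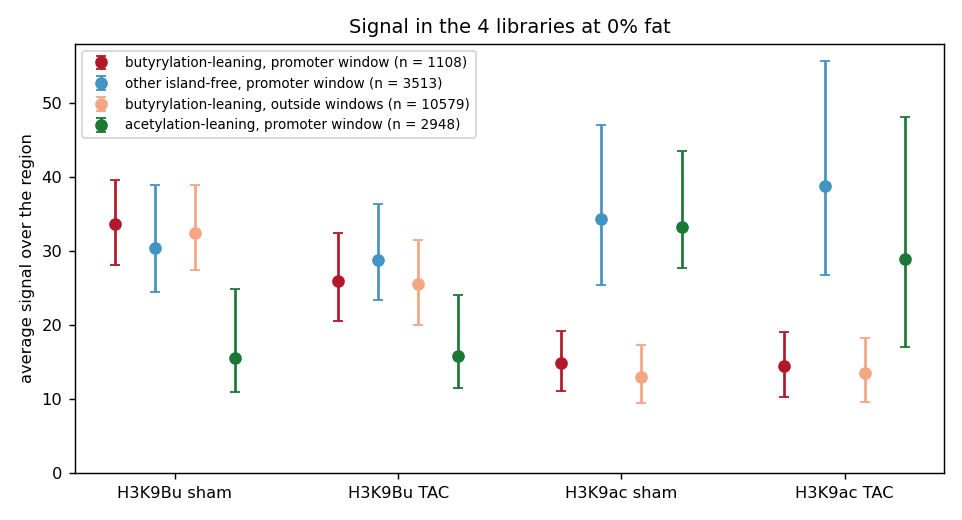
Average signal at 0% fat in the 4 libraries for the 1108 butyrylation-leaning promoter-window regions and 3 other groups of regions. Points are medians and bars run from the lower to the upper quartile. The H3K9ac medians of the groups chosen for butyrylation are 13 to 14.9, a difference from the other island-free regions that the rule sets.

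The thresholds cut through a continuous distribution. Just inside the ratio were regions at Tango2 and Dnahc6 (both 1.5) and Tm2d2 (1.50002), and just outside were Kcne4 at 1.498, Mlxipl at 1.497 and E230029C05Rik at 1.493. At the signal threshold, regions at Gm5532, Ocstamp and Ido2 had a mean H3K9Bu of exactly 20, and the nearest below were Gm19450 at 19.93, C130083M11Rik at 19.88 and Plaur at 19.86. The longest regions were at Gm15471 (3111 bp) and Heg1 (2786 bp), and no region that met the other conditions had 4000 bp or more.

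Predicted, clone-named and small RNA genes are left out of the rankings named here and below. The strongest H3K9Bu was at Ap5s1, a subunit gene of an adaptor complex of late endosomes, at chr2:131204443-131204826 (mm10). Its H3K9Bu signal was 109 in sham and 106 in TAC at 0% fat, and its H3K9ac signal 44.9 and 82.2. This region is high in all 4 libraries. Next of the genes ranked came Plod1, a collagen lysyl hydroxylase, with H3K9Bu of 76.5 and 66.6 and H3K9ac of 40.4 and 44.1. Hspa4, a chaperone of the HSP70 family, had 74.9 and 63.1 for H3K9Bu and 26.0 and 35.8 for H3K9ac. This region centred at -8110 bp from the Hspa4 start, and the RefSeq promoter sequence of the predicted gene Gm30525 lay inside it. Spag9, a JNK scaffold protein, had 63.7 and 58.8 against 23.7 and 37.6. The remaining 6 of the 10 highest ranked were at Cp (ceruloplasmin), Mcl1 (an inhibitor of apoptosis), Trpm1 (a cation channel), Ier3 (an immediate early gene), Ift81 and Akap2 (an anchor of protein kinase A), with mean H3K9Bu of 56.0 to 60.2. Their centres lay between -8472 and 2179 bp from the start.

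The highest ratios among the ranked genes belonged to regions of low acetylation, and the highest of all (9.19) was at the clone-named gene 5430427M07Rik. At G6pc2, a glucose-6-phosphatase gene known from pancreatic islets, the H3K9Bu signal was 39.1 in sham and 18.5 in TAC and the H3K9ac signal 4.4 and 3.2. That is a ratio of 7.60 with a 95% counting interval of 4.50 to 14.3, which covers counting error only. Mlf1, a myeloid leukemia factor gene, had 28.4 and 15.1 against 3.1 and 3.2. Zfyve16, an endosomal zinc finger protein gene, had 37.9 and 17.1 against 3.2 and 4.9. H3K9ac was below 5 in every one of these 6 values. Myf6, a muscle regulatory transcription factor, had a ratio of 5.57 (interval 3.85 to 8.19) and Ky, a muscle protein linked to the kyphoscoliosis mouse, 4.82 (interval 3.32 to 7.47). The others of the 10 were at Gabrr2, Gnat3, Dpep2, Fbxo9 and Scgb3a1, with ratios of 4.80 to 5.95. Their counting intervals overlap, so their order is not resolved.

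Genes of muscle and fat metabolism were present among the regions. Of all 3685 genes with an island-free promoter-window region of H3K9Bu 20 or more, 914 (24.8%) had a butyrylation-leaning one. Among sarcomere genes this was 9 of 24 (37.5%), among skeletal muscle genes 11 of 27 (40.7%), among targets of the nuclear receptor PPAR and fatty acid oxidation genes 9 of 21 (42.9%) and among load and fetal genes 6 of 8 (75%). Calcium handling and ion channel genes had 3 of 12 (25%), endothelial genes 6 of 22 (27.3%), immune and interferon genes 3 of 15 (20%), macrophage genes 1 of 8 (12.5%) and fibroblast and matrix genes 1 of 6 (16.7%). Among cardiac transcription factor genes it was 1 of 9 (11.1%), and no histone acyltransferase or deacylase gene out of 8 had one. Acetylation-leaning regions had H3K9ac of 20 or more and at least 1.5 times H3K9Bu. Of 7200 genes with an island-free promoter-window region under 4000 bp, 3121 had an acetylation-leaning one. This was 18 of 26 sarcomere, 17 of 32 skeletal muscle, 8 of 27 PPAR and fatty acid and 4 of 14 load and fetal genes. A gene can have both kinds of region. These shares are descriptions of lists of few genes.

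The sarcomere genes included Actc1, Ankrd1, Csrp3, Des, Ldb3, Myl2, Myom1 and Tnnt2, and the list had 13 regions between -4794 and -474 bp from the start and ratios of 1.55 to 3.62. Myom1, a protein of the M-band, held a pair of them. The one at chr17:71015569-71016029 had H3K9Bu signals of 73.8 in sham and 38.1 in TAC at 0% fat, 63.8 and 37.4 at 10% and 49.1 and 31.2 at 60%. Its centred TAC/sham ratios, explained below, were -0.80, -0.05 and -0.28, so at 10% fat the region was level with the table. Its H3K9ac signals at 0% fat were 26.6 and 17.2. Tnnt2, cardiac troponin T, had H3K9Bu of 47.4 and 30.6 at 0% fat, 36.2 and 14.2 at 10% and 14.0 and 13.4 at 60%. Its H3K9ac was 22.4 and 13.6, then 15.4 and 17.1, then 16.3 and 21.6. At 60% fat the Tnnt2 libraries of H3K9Bu were nearly level before centring. The median log2 ratio over that table was -0.36, so relative to the table Tnnt2 was higher in TAC. Ankrd1, a stress-responsive ankyrin repeat protein, went the other way at 0% fat, with H3K9Bu of 22.6 in sham and 34.9 in TAC, and had no matching region at the other diets.

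TAC/sham ratios below are log2 values of the signal plus 1, centred on the median over all regions of the same table. Before centring, the H3K9Bu medians over a table were -0.14, -0.71 and -0.36 at 0, 10 and 60% fat, and those of H3K9ac 0.07, 0.02 and 0.13. Each H3K9Bu comparison of TAC with sham at 10% fat, for single genes too, rests on the sham library that stood apart. In bulk tissue, fewer cells of a type and less of a mark per cell cannot be told apart. Among the 13 sarcomere regions the median centred H3K9Bu ratio was -0.48 at 0% fat, with 12 of 13 below 0, and -0.23 and -0.28 in the 9 measured at 10 and 60% fat. Over all 1108 regions 795 were below 0 at 0% fat, with a median of -0.28. The marker sums that follow are signals before centring. Summed over the 8 cardiomyocyte markers, the strongest promoter-window H3K9Bu signal was 324 in sham and 210 in TAC at 0% fat. It was 304 and 135 at 10% and 145 and 85.9 at 60%. The same sum for H3K9ac was 567 and 568, 601 and 514, and 531 and 427. For endothelial markers the H3K9Bu sum was 122 and 96.6, 133 and 89.8, and 97.5 and 78.1. For fibroblast markers it was 68.3 and 68.95, 98.3 and 50.7, and 46.9 and 41.4. The part of these marker levels in the ratios was not tested.

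The PPAR and fatty acid genes included Acadl, Angptl4, Cd36, Fabp3, Lpl, Pdk4, Slc27a1 and Vldlr, and the list had 12 regions. At 0% fat 11 of the 12 had a centred H3K9Bu ratio below 0, with a median of -0.71. By 1.5-fold or more, 8 were lower in TAC, as were 21.1% of the 1108 butyrylation-leaning regions and 11.3% of all regions. At 10 and 60% fat 7 of 7 measured regions were below 0, with medians of -0.44 and -0.35. Below 0 were 561 of the 837 butyrylation-leaning regions and 22149 of all 33756 at 10% fat, and 476 and 17683 at 60%. H3K9ac was below 0 in 11 of 12, 5 of 6 and 5 of 6, against 637 of 1108, 325 of 498 and 288 of 498 butyrylation-leaning regions. Pdk4 made up 3 of the 6 regions measured for H3K9ac at 10 and 60% fat. A pair of these Pdk4 regions shared the same matched region and so the same ratios, and they are not independent. Cd36, the fatty acid translocase, had adjoining regions with H3K9Bu of 43.7 in sham and 16.7 in TAC and of 44.0 and 15.5. Their H3K9ac was 20.4 and 6.6, and 17.6 and 7.4. Both marks were lower in TAC in both regions, and neither region was matched at the other diets.

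Pdk4, the kinase that inhibits pyruvate dehydrogenase, had 3 regions upstream of its start. At chr6:5498409-5498727 H3K9Bu was 59.3 in sham and 38.5 in TAC at 0% fat, 41.2 and 16.7 at 10% and 18.4 and 8.3 at 60%. H3K9ac there was 31.6 and 27.1 at 0% fat. The H3K9ac region matched to it at the other diets had 93.1 and 64.4 at 10% and 88.2 and 63.0 at 60%. Before centring, the sham library was the higher one in all 6 pairs. The matched H3K9ac region is 7358 bp long, against 318 bp for the butyrylation-leaning one. Lpl, lipoprotein lipase, had H3K9Bu of 39.8 and 21.9, 33.5 and 14.6, and 15.5 and 10.9 at 0, 10 and 60% fat. Slc27a1, a fatty acid transport protein, had 44.6 and 24.3, 34.5 and 18.5, and 24.9 and 14.2. Sham exceeded TAC in each of these pairs before centring. Angptl4, a secreted inhibitor of lipoprotein lipase, was the exception at 0% fat with 31.9 and 39.4, and had 32.8 and 17.8 at 10% and 25.3 and 18.1 at 60%.

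**Figure D3:**
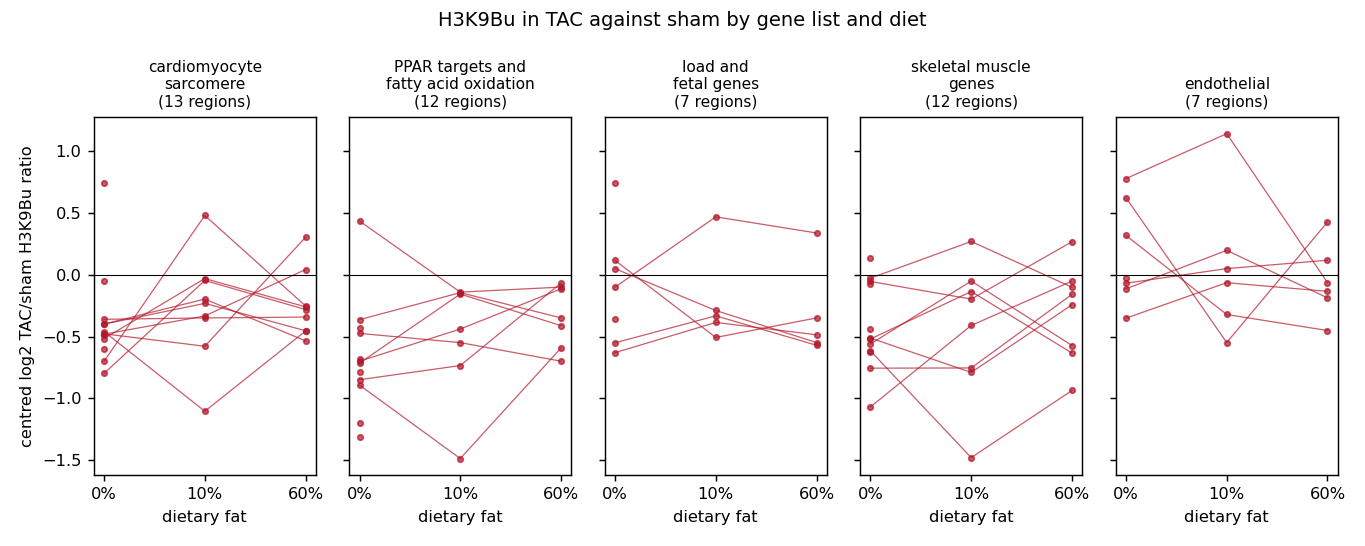
Centred log2 TAC/sham H3K9Bu ratio of the butyrylation-leaning regions of 5 gene lists at 0, 10 and 60% dietary fat. Each point is 1 region and lines join a region across diets, so points without a line were measured at 0% fat only. Of 12 PPAR regions 11 lie below 0 at 0% fat, and all 7 measured at the other diets lie below 0 there.

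Load-responsive genes with such a region were Ankrd1, Ctgf, Fhl2, Gdf15, Mt2 and Rcan1. Rcan1, an inhibitor of calcineurin, had H3K9Bu of 42.2 in sham and 24.4 in TAC at 0% fat, 36.8 and 16.8 at 10% and 24.4 and 13.2 at 60% in the first of its 2 regions. Gdf15, a stress-induced cytokine, had 49.95 and 42.25, 28.2 and 23.8, and 22.4 and 22.1. Its centred ratios were -0.10, 0.47 and 0.34. Ctgf, a matricellular protein, had 38.5 and 36.2, 29.9 and 14.5, and 15.3 and 7.7. Over the 7 regions of this list the median centred ratios were -0.10 at 0% fat and -0.33 and -0.49 in the 5 measured at 10 and 60%.

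Pln, phospholamban, which restrains the calcium pump SERCA, and the potassium channel gene Kcna5 each had 2 regions, and Cacna1c, the L-type calcium channel, had 1. The larger Pln region had H3K9Bu of 49.8 and 27.8 at 0% fat, 38 and 13 at 10%, and 13.1 and 11.2 at 60%. All 5 regions were below 0 at 0% fat, 3 at 10% and 2 at 60%. In the endothelial list (Gpihbp1, Icam2, Nos3, Pecam1, Ptprb and Robo4) the median centred H3K9Bu ratios were close to 0 at all diets (-0.03, -0.01 and -0.10). Nos3, endothelial nitric oxide synthase, had H3K9Bu of 45.3 and 32.0, 31.2 and 17.9, and 18.2 and 12.7. Of the skeletal muscle regions 11 of 12, 7 of 8 and 7 of 8 were below 0, against 795 of 1108, 561 of 837 and 476 of 837 butyrylation-leaning regions. Trim54, a sarcomeric ubiquitin ligase, had 42.8 and 25, 33.4 and 6.6, and 9.9 and 3.4.

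The libraries at 10 and 60% fat were not used to choose the regions. Of the 1108, 837 (75.5%) overlapped a region of the H3K9Bu table of these diets, against 68.5% of all 49314 regions and 87.2% of the other island-free promoter-window regions. For H3K9ac the shares were 44.9% (498 regions), 66.8% and 92.9%. The low acetylation was thus also seen at the other diets. It was not particular to promoter windows, since 37.3% of the butyrylation-leaning regions outside them overlapped an H3K9ac region of these diets. Called H3K9ac regions were overlapped by 32.6% of the 1108 in sham at 10% fat, 27.1% in TAC at 10%, 28.7% in sham at 60% and 29.6% in TAC at 60%, against 56.1 to 57.8% of all regions and 85.7 to 87.4% of the others. For H3K9Bu the shares were 71.5% in the sham 10% library that stood apart, and 19.8, 27.3 and 8.57% in TAC 10%, sham 60% and TAC 60%. All regions had 61.7, 29.9, 34.2 and 17.01%, so the 1108 were above all regions in the sham 10% library and below in the other 3. The others had 83.0, 40.1, 41.2 and 19.2%.

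Where a match existed, the rank was below that of all matched regions in both marks. The median percentile of the matched regions within each H3K9ac library was 34.6 to 42.0, against 62.0 to 62.4 for all matched regions. Within the H3K9Bu libraries it was 60.6 in sham 10%, 40.8 in TAC 10%, 36.9 in sham 60% and 34.5 in TAC 60%, against 66.2, 53.0, 45.0 and 44.9. The lean towards butyrylation could not be measured as a ratio at these diets, since the marks lie in separately scaled tables. In ranks, the gap to all regions was 20.4 to 27.7 percentile points for H3K9ac and 5.66 to 12.3 for H3K9Bu.

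**Figure D4:**
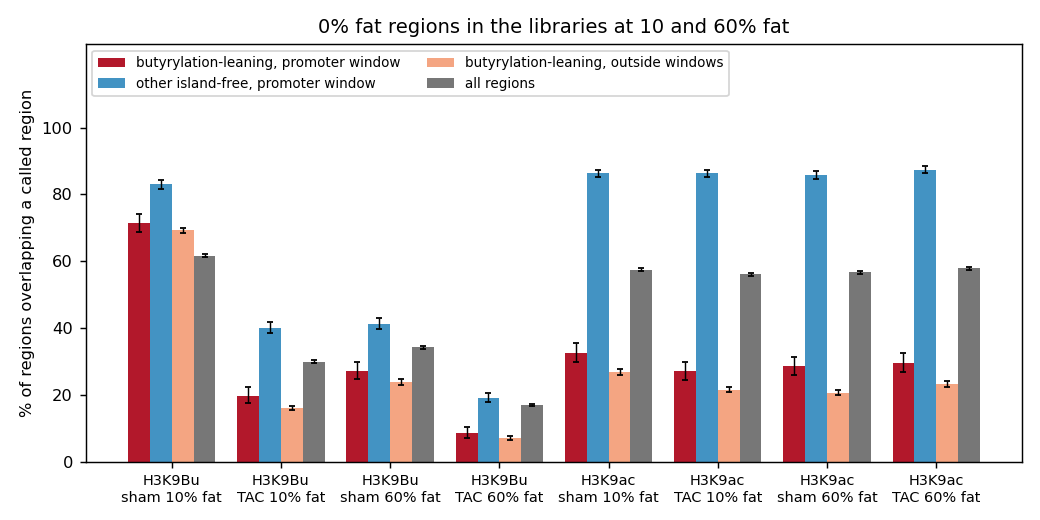
Share of 0% fat regions that overlap a region called in each of the 8 libraries at 10 and 60% fat, for the 1108 butyrylation-leaning promoter-window regions and 3 other groups. Error bars are exact 95% binomial intervals that cover counting of regions only. In the H3K9ac libraries the 1108 regions reach 27.1 to 32.6% and the other island-free regions 85.7 to 87.4%.

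The response to TAC was compared at each diet, with 1 library on each side and no test. H3K9Bu of the 1108 regions had median centred log2 TAC/sham ratios of -0.28 at 0% fat, -0.16 at 10% and -0.06 at 60%. All regions measured had 0, -0.19 and -0.02. The regions were therefore below the rest at 0% fat, close to it at 10% and slightly below at 60%. The 10% fat values rest on the sham library that stood apart. The 0% fat value comes from the libraries that chose the regions. It was -0.51 in the 487 regions called in sham H3K9Bu only, 0.64 in the 124 called in TAC only and -0.12 in the 497 called in both. The butyrylation-leaning regions outside promoter windows had -0.27, -0.23 and -0.12.

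At 0% fat 81 of the 1108 regions (7.31%) were higher and 234 (21.1%) lower by 1.5-fold or more in H3K9Bu, against 9.73% and 11.3% of all regions. At 10% fat it was 5.62% and 16.1% of 837, against 11.8% and 13.7%. At 60% fat it was 4.90% and 9.44%, against 4.97% and 5.78%. These shares depend on the settings. The lower share of the 1108 regions at 10% fat was 9.80% with a pseudocount of 5, 7.92% among regions at or above the 25th percentile of signal (7.27% higher) and 26.5% with lowess centring. At 60% fat it was 3.23% with a pseudocount of 5.

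H3K9ac of the same regions had medians of -0.11 at 0% fat, -0.15 at 10% and -0.10 at 60%, against 0, 0.01 and 0.01 over all regions. With a lowess trend on mean signal in place of the median, the 0% fat value was 0.14, so its direction depends on the scaling. Regions higher and lower by 1.5-fold or more made up 11.3% and 19.6% at 0% fat, against 13.6% and 23.5% of all regions. At 10% fat they were 2.41% and 12.7% of 498, against 2.47% and 4.57%. At 60% fat they were 9.24% and 17.9%, against 6.04% and 9.17%. At 0% fat both shares were below those of the table, but lowess centring turned the balance to 23.0% higher and 8.94% lower. At 10% fat the lower share was above it, and at 60% fat both shares were.

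**Figure D5:**
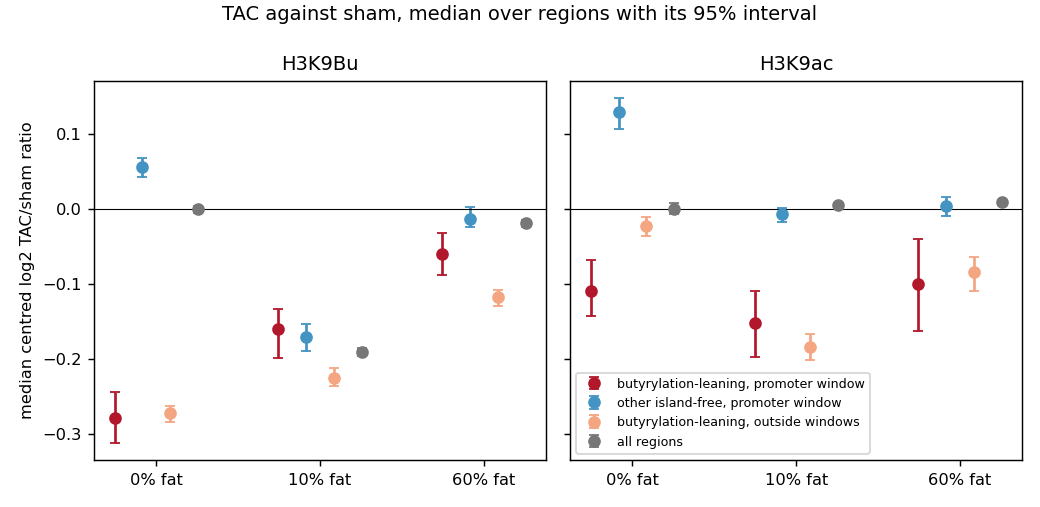
Median centred log2 TAC/sham ratio of H3K9Bu (left) and H3K9ac (right) at 0, 10 and 60% fat for 4 groups of regions, with the exact 95% interval of the median over regions. Regions are not replicates, so the interval describes these libraries only. The butyrylation-leaning promoter-window regions have medians from -0.28 to -0.06 for H3K9Bu and from -0.15 to -0.10 for H3K9ac.

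The 3 diets were then used as replicates of the TAC effect in limma, a moderated linear model fitted over all matched regions. With Benjamini-Hochberg adjustment no region of either mark passed 0.05, which is 0% of 33756 for H3K9Bu and 0% of 32963 for H3K9ac in each direction. At an unadjusted p under 0.05, 33 of the 837 regions were higher in TAC in H3K9Bu (3.94%, against 4.69% of all) and 138 lower (16.5%, against 8.29%). In H3K9ac 36 of 498 were higher (7.23%, against 8.95%) and 83 lower (16.7%, against 9.91%). The 0% fat ratio in each test comes from the libraries that chose the regions, so the choice can enter these shares and the calls below. The 10% fat ratio of H3K9Bu rests on the sham library that stood apart. On simulated 2-fold changes this limma fit called 0 of 200 for H3K9Bu and 82 of 200 for H3K9ac, so its absence of calls for H3K9Bu says little. With a variance trend on tag number, added after seeing the data, limma called 168 and 188 of 200. The simulation held counting error only and no variation between pools or diets, so these recoveries need not hold for the data. On the data the fit with the trend called 44 H3K9Bu regions higher (0.13% of those tested) and 90 lower (0.267%), and 200 (0.607%) and 444 (1.35%) for H3K9ac.

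Of the butyrylation-leaning regions this second fit called 1 higher and 3 lower for H3K9Bu, and 1 higher and 3 lower for H3K9ac. Syk, a tyrosine kinase of immune cell signalling, was higher in TAC, with H3K9Bu of 11.6 in sham and 32.5 in TAC at 0% fat, 23.0 and 44.1 at 10% and 49.0 and 57.4 at 60%. TAC was the higher library in each pair, and the mean centred log2 ratio was 1.25 (SE 0.26, adjusted p = 0.028 with limma and the trend, 0.21 without it). Prss52, a serine protease gene, was lower, with 51.7 and 31.9, 37.5 and 10.4, and 19.2 and 6.4. Its mean ratio was -0.89 (SE 0.18, adjusted p = 0.027 with limma and the trend, 0.21 without it). The other 2 lower regions were at C730036E19Rik and 2610028H24Rik, with mean ratios of -1.0 and -0.83. Their matched regions at 10 and 60% fat overlapped only 319 of 1409 bp and 441 of 1163 bp. Each of these 4 calls depended on single diets. That of Syk was lost without 0% fat (adjusted p = 0.095 with limma and the trend) and that of Prss52 without 60% fat (0.22). The other 2 were lost without 0% fat (0.050 for C730036E19Rik and 0.24 for 2610028H24Rik) and without 60% fat (0.27 and 0.14).

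For H3K9ac the lower calls were at 2 of the Pdk4 regions and at Ppp1r3a, the muscle targeting subunit of the glycogen phosphatase. The Pdk4 region at chr6:5497986-5498309 had 23.5 and 12.8 at 0% fat and shares the matched region at 10 and 60% fat given above. Its mean ratio was -0.69 (SE 0.08, adjusted p = 0.0098 with limma and the trend, 0.18 without it). The second Pdk4 region had -0.48 (adjusted p = 0.017 with limma and the trend, 0.19 without it). These are not independent calls, since 2 of their 3 ratios come from the same region. That region is 7358 bp long, against 323 and 318 bp for the butyrylation-leaning regions, so those ratios describe a broader domain. Ppp1r3a had 18.5 and 14.9, 59.4 and 43.5, and 52.9 and 38.2, where the matched region was 2987 bp long and overlapped 280 of 501 bp. Its mean ratio was -0.47 (adjusted p = 0.045 with limma and the trend, 0.19 without it). The call of Ppp1r3a was lost without 60% fat (0.32). AI839979 was higher, with 7.2 and 21.5, 2.7 and 7.0, and 7.2 and 26.8, a mean ratio of 1.37 (adjusted p = 0.0497 with limma and the trend, 0.18 without it, and 0.20 with the trend but without 60% fat).

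The 10 highest mean H3K9Bu ratios were ranked among regions at or above the median signal and measured at all diets. None of the 10 passed limma, with adjusted p = 0.168 to 0.475 with the trend. Tlr6, a receptor for bacterial lipopeptides, had H3K9Bu of 19.2 in sham and 40.7 in TAC at 0% fat, 28.4 and 24.1 at 10% and 18.8 and 22.6 at 60%, a mean centred ratio of 0.76. H2-DMb2, a chaperone of antigen loading, had 20.3 and 41.1, 32.8 and 22.9, and 13.9 and 20.1, a mean of 0.73. H2-T24, Tyk2, Anxa5, Fblim1, Vdac2, Ahnak, Ap5s1 and Arhgap8 made up the rest, with means of 0.43 to 0.63. At 10% fat sham was the higher library before centring for Tlr6 and H2-DMb2. Of 4 macrophage markers 3 had a promoter-window region (Adgre1 had none). Before centring, their summed H3K9Bu was 76.4 in sham and 90.8 in TAC at 0% fat, 128 and 55.1 at 10% and 45.8 and 46.6 at 60%. Their summed H3K9ac was 141 and 220 at 0% fat, 185 and 183 at 10% and 149 and 196 at 60%. The part of these markers in the ratios was not tested.

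Among the 10 lowest, Trim54 and Abra, an actin-binding protein of striated muscle, had mean ratios of -1.01 and -1.03. Abra had H3K9Bu of 38.1 and 27.4, 34.6 and 8.2, and 10.6 and 2.1, while its H3K9ac at 0% fat was 6.8 in sham and 15.5 in TAC. Kcnk3, a background potassium channel, had 61.4 and 36.7, 39.9 and 13.6, and 16.4 and 5.8, a mean of -0.79. Klhl24, Ubxn10, Prss52, Rbm24, Gnat3, Hhatl and Cmtm1 had means of -0.97 to -0.69. Sham was the higher H3K9Bu library before centring in every pair of Abra, Kcnk3 and Trim54. Of these 10, Prss52 alone passed adjusted p under 0.05 in limma with the variance trend, and the clone-named 2610028H24Rik, left out of the ranking, lies within their range and passed too.

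Food with 60% against 10% fat was compared within each surgery, with 1 library on each side. Median centred log2 ratios of H3K9Bu were -0.16 in sham and -0.09 in TAC, against -0.25 and -0.10 over all matched regions. The sham value rests on the 10% library that stood apart. For H3K9ac they were -0.09 in sham and -0.01 in TAC, against -0.01 in sham and -0.005 in TAC over all regions. The medians differed from those of the table by less than 0.1 in all 4 comparisons.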

How the data were processed

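Hearts were profiled by ChIP-seq for H3K9ac and H3K9Bu in 12 libraries, 1 per mark, surgery and diet; 2 input libraries were not used. The submitters' processing notes name BWA, SICER and the build mm10; versions and the scaling between libraries are not given in the sources used here. The deposited tables merge the regions of 4 libraries each. The average and peak values are a signal (tag density), the presence marks are scores of 0 or 1, and the tag number the authors list equals the higher average signal times length over 224 in 483776 of 483776 cells, per the file headers and values; that relation gave the tags per library. Levels were compared only within a table.

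Ratios were log2 of signal plus a pseudocount of 1, centred on the table's median. Regions at 0% fat took the values of the region with the largest overlap at the other diets: 837 of the 1108 matched 809 H3K9Bu regions and 498 matched 486 H3K9ac regions. Single ratios have exact (Clopper-Pearson) 95% intervals on estimated tags, which cover counting error only. limma 3.58.1 tested the 3 within-diet TAC/sham ratios over all matched regions. It was tested on simulated data with 200 changed regions and counting error only. Other tools were Python 3.11.15, numpy 2.4.6, pandas 2.3.3, scipy 1.17.1, statsmodels 0.14.6, matplotlib 3.10.9 and R 4.3.3.

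Named regions were the 10 highest in H3K9Bu, in ratio, and in mean TAC/sham H3K9Bu ratio and the 10 lowest in the last (among regions at or above the median signal and measured at all diets), those called by limma, 3 at each side of a threshold, and those of listed genes; predicted and small RNA genes could be left out, and a few named regions are not reported here. The regions and gene lists were chosen with earlier results of these data known. Motifs were sought in RefSeq promoter sequences, since no genome was used for the planned 300 bases at region centres. Of the 1108 nearest genes, 1020 matched RefSeq. Alternatives were a pseudocount of 5, peak signal, lowess centring, a 25th percentile filter, reciprocal overlap, other thresholds, leaving out a diet and, added after seeing the data, a variance trend, regions called in both H3K9Bu libraries and another centring group. Whether the pools were of separate animals per library is not given, and p-values over diets treat the diets as replicates.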

Additional observations from a re-analysis of the deposited data

How the results depend on the processing

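The number of regions was 1108 and became 515 with a ratio of at least 2; 747, 1142 and 1480 met the rule with the ratio in the sham and TAC pairs separately, with peak signal, and with H3K9ac scaled to the table's median ratio, of which 747, 982 and 1108 were among the 1108. The median TAC/sham H3K9Bu ratio at 0% fat of -0.28 became -0.23 with peak signal, -0.24 with lowess centring, -0.12 in regions called in both H3K9Bu libraries and -0.33 when centred on the other island-free promoter-window regions. At 10% fat -0.16 became -0.25 with lowess and -0.10 with the percentile filter, and it reversed to 0.011 when centred on those other regions. The H3K9ac ratio at 0% fat of -0.11 became -0.19 with peak signal, -0.066 in regions called in both H3K9Bu libraries and -0.24 centred on the other regions, and reversed to 0.14 with lowess. For 60% against 10% fat, the H3K9Bu ratio in TAC of -0.09 became -0.064 with a pseudocount of 5 and -0.064 with lowess, that in sham of -0.16 became -0.39 with lowess and -0.085 with the filter, and that of H3K9ac in TAC of -0.01 became 0.037 with reciprocal overlap. The cause of these shifts was not tested. Of 56 recomputed shares past 1.5-fold, 27 left the counting interval of the main value. With an overlap of at least 50% of the region, the share overlapping an H3K9Bu region at 10 or 60% fat was 64.5% in place of 75.5% (sham 10% fat 61.6%, sham 60% fat 24.5%), and for H3K9ac 32.5% in place of 44.9% (sham 10% 24.7%, TAC 10% 20.9%, sham 60% 21.0%, TAC 60% 23.3%). limma called 0 regions of either mark; the variance trend called 4 and 4. Leaving out 1 diet gave 0 to 4 without the trend and 2 to 33 with it for H3K9Bu, and 0 to 0 without it and 2 to 46 with it for H3K9ac. No pairing by replicate number was possible, since each group has 1 library. The limma fit already paired TAC with sham within each diet. The motif count at region centres was not run, since no genome was used. At the median region 25 estimated H3K9ac tags per library limit any single ratio.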
